A study of Mus musculus with 2 samples.

Results

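The 9 genes described here regulate the step from G1 into S phase: the cyclin-dependent kinase (CDK) inhibitors Cdkn2a, Cdkn2b, Cdkn2c and Cdkn1b, the D cyclins Ccnd2 and Ccnd3, the G1 kinases Cdk4 and Cdk6, and the retinoblastoma gene Rb1. They were taken by symbol from the 27998 mouse genes counted in both libraries, and all 9 were listed in both. The libraries came from 2 glioblastomas of the NPCTKO model, 1 per C57BL/6 mouse of 3 months, called tumour 1 and tumour 2 as the labels number them. In this model, plasmids were electroporated into neocortical precursors of the embryo to deliver Cas9, guides to tumour suppressors such as Trp53 and Nf1, luciferase and an EGFP label, so the gliomas of both tumours share these alterations by design, and no glioma without them was sampled. Per the study, 1 host was a Tek-Cre;Ai14 mouse and the other a Tbx18 CreERT2/+;Ai14 mouse. In the first line tdTomato marks cells that have expressed Tek, and in the second cells that expressed Tbx18 when tamoxifen was given. The labels do not assign the hosts to the libraries. Host, animal and library therefore cannot be told apart when the tumours differ, and no test was made between them.

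D cyclins bind Cdk4 or Cdk6, and the active kinase phosphorylates the Rb1 protein, which then releases E2F transcription factors and lets the genes of S phase be transcribed. Inhibitors of the INK4 family (Cdkn2a, Cdkn2b, Cdkn2c and Cdkn2d) bind the kinases themselves and keep D cyclins away, whereas Cdkn1b, which encodes p27, binds whole cyclin and CDK complexes. Cdkn2a also encodes, from another first exon and in another reading frame, the Arf protein, which restrains Mdm2 and so stabilizes the p53 protein. In gliomas this circuit is among the most often altered, through loss of the Cdkn2a and Cdkn2b locus, gain of Cdk4 or Cdk6, or loss of Rb1.

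On mouse build GRCm38, Cdkn2a (chr4:89274471-89294653) and Cdkn2b (chr4:89306299-89311039) are neighbours on the minus strand, and Cdkn2c (chr4:109660876-109667189, minus strand) lies farther along the same chromosome. Cdkn1b (chr6:134920401-134925513, plus strand) and Ccnd2 (chr6:127125162-127152193, minus strand) share chromosome 6. Ccnd3 is at chr17:47505051-47599691, Cdk4 at chr10:127063534-127067920 and Cdk6 at chr5:3341485-3531008, all on the plus strand, and Rb1 is at chr14:73183673-73325822 on the minus strand. Both annotated Cdkn2a transcripts end in the same pair of exons and share 575 bases, while their starts lie 12461 bases apart and their 3′ ends 70 bases apart. Since the kit tags 3′ ends, each Cdkn2a value below is the sum over the p16Ink4a and Arf transcripts. The windows around the 2 Cdkn2a starts, from 250 bases before to 50 after the start (RefSeq, GRCm38.p6), are shown because they differ in an E2F word: capitals mark TTTCCCGC, 1 of 4 words searched on both strands (TTTCCCGC, TTTCGCGC, TTTGCCGC and TTTGGCGC, found in 2.26% of 32851 promoter windows of the same length). The Cdk4 window is shown for its 4 copies of the E-box CACGTG, also in capitals, a word bound by Myc proteins: 7.15% of the windows hold at least 1 copy and 8 windows (0.0244%) hold 4 or more. A match is a description of the letters and no evidence of binding. Of the 9 genes, 7 had windows in this table, and Ccnd2 and Rb1 are named only.
Cdkn2a Arf start, chr4:89294570-89294869, minus strand: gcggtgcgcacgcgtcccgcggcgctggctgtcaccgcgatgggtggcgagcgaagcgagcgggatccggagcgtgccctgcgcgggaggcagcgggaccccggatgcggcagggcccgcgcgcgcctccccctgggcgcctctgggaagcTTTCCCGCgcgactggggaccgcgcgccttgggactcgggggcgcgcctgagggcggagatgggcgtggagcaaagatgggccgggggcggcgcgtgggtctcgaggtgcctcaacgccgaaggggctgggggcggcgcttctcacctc
Cdkn2a p16Ink4a start, chr4:89282143-89282442, minus strand: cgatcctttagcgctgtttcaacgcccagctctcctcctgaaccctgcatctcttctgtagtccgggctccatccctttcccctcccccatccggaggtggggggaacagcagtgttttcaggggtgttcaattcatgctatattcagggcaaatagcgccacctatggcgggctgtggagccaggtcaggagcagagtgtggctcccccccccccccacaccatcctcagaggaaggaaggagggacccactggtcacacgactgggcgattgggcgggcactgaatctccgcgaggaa
Cdk4, chr10:127063285-127063584, plus strand: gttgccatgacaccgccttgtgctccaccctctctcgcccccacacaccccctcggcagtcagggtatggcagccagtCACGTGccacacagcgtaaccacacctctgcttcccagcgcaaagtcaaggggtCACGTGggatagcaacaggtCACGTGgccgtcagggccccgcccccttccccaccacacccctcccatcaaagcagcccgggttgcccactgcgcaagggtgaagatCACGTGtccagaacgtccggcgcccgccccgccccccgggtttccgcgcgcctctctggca

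Cells were sorted into 7 classes by raw UMIs of marker genes, where a UMI (unique molecular identifier) stands for 1 captured transcript. None of the 9 genes served as a marker. Glioma cells were divided into those with at least 1 UMI of Mki67 or Top2a, genes transcribed in dividing cells (Mki67/Top2a+, 4785 and 3464 cells in tumours 1 and 2), and those with none (Mki67/Top2a-, 3069 and 2390). The other classes were astrocyte-like (783 and 103), oligodendrocyte-like (165 and 97), vascular-like, which pools endothelial and mural cells (50 and 51), T-cell-like (267 and 664) and myeloid-like (940 and 2078). Median depth ran from 7904 UMIs in T-cell-like cells to 28833.5 in Mki67/Top2a+ glioma cells, both in tumour 2. The marker genes of each class had UMIs in that class in both tumours, and the split by Mki67 and Top2a leans on depth, since a deeper cell is more likely to show 1 UMI. Some classes were mixed: 69.5% and 58.3% of astrocyte-like cells and 55.8% and 36.1% of oligodendrocyte-like cells also passed the glioma gate. Glioma cells held 71.0 to 107 UMIs of EGFP per 10000, those 2 classes 72.1 to 107, and vascular-like, T-cell-like and myeloid-like cells 7.22 to 21.6, so the astrocyte-like and oligodendrocyte-like classes cannot be taken as free of glioma cells. The T-cell-like gate also held UMIs of 4 genes listed as natural killer markers (Ncr1, Klrb1c, Nkg7 and Gzma, 23.8 and 15.4 UMIs per 10000 in sum), 1 of which had none in tumour 1. Whether natural killer cells or T cells held them was not tested. The myeloid-like gate of tumour 2 held neutrophil transcripts (7.58, against 0.00821 in tumour 1). The 2 libraries shared 51 barcodes, 42 of them among the cells kept. The edit of Trp53 was not checked, because UMI counts per gene do not show which transcripts carry an edit. Transcripts of Trp53 stood at 0.524 and 0.269 UMIs per 10000 in Mki67/Top2a- glioma cells.

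Levels are UMIs per 10000 of all mouse UMIs of a class, given for tumour 1 and then tumour 2, and intervals on them cover counting error only. For tests, UMIs were summed per tumour and class, and the 14 sums entered 1 edgeR quasi-likelihood fit with the tumour as a block, in which all 9 genes passed the low-count filter among 15510 genes. Adjusted p-values are Benjamini-Hochberg values over all 15510 genes, fold changes are log2 values with 1 standard error (SE), and a gene was called at an adjusted p under 0.05. There are 2 animals, so a p-value measures a class difference against how much the classes of the 2 tumours deviate from each other.

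**Figure D1:**
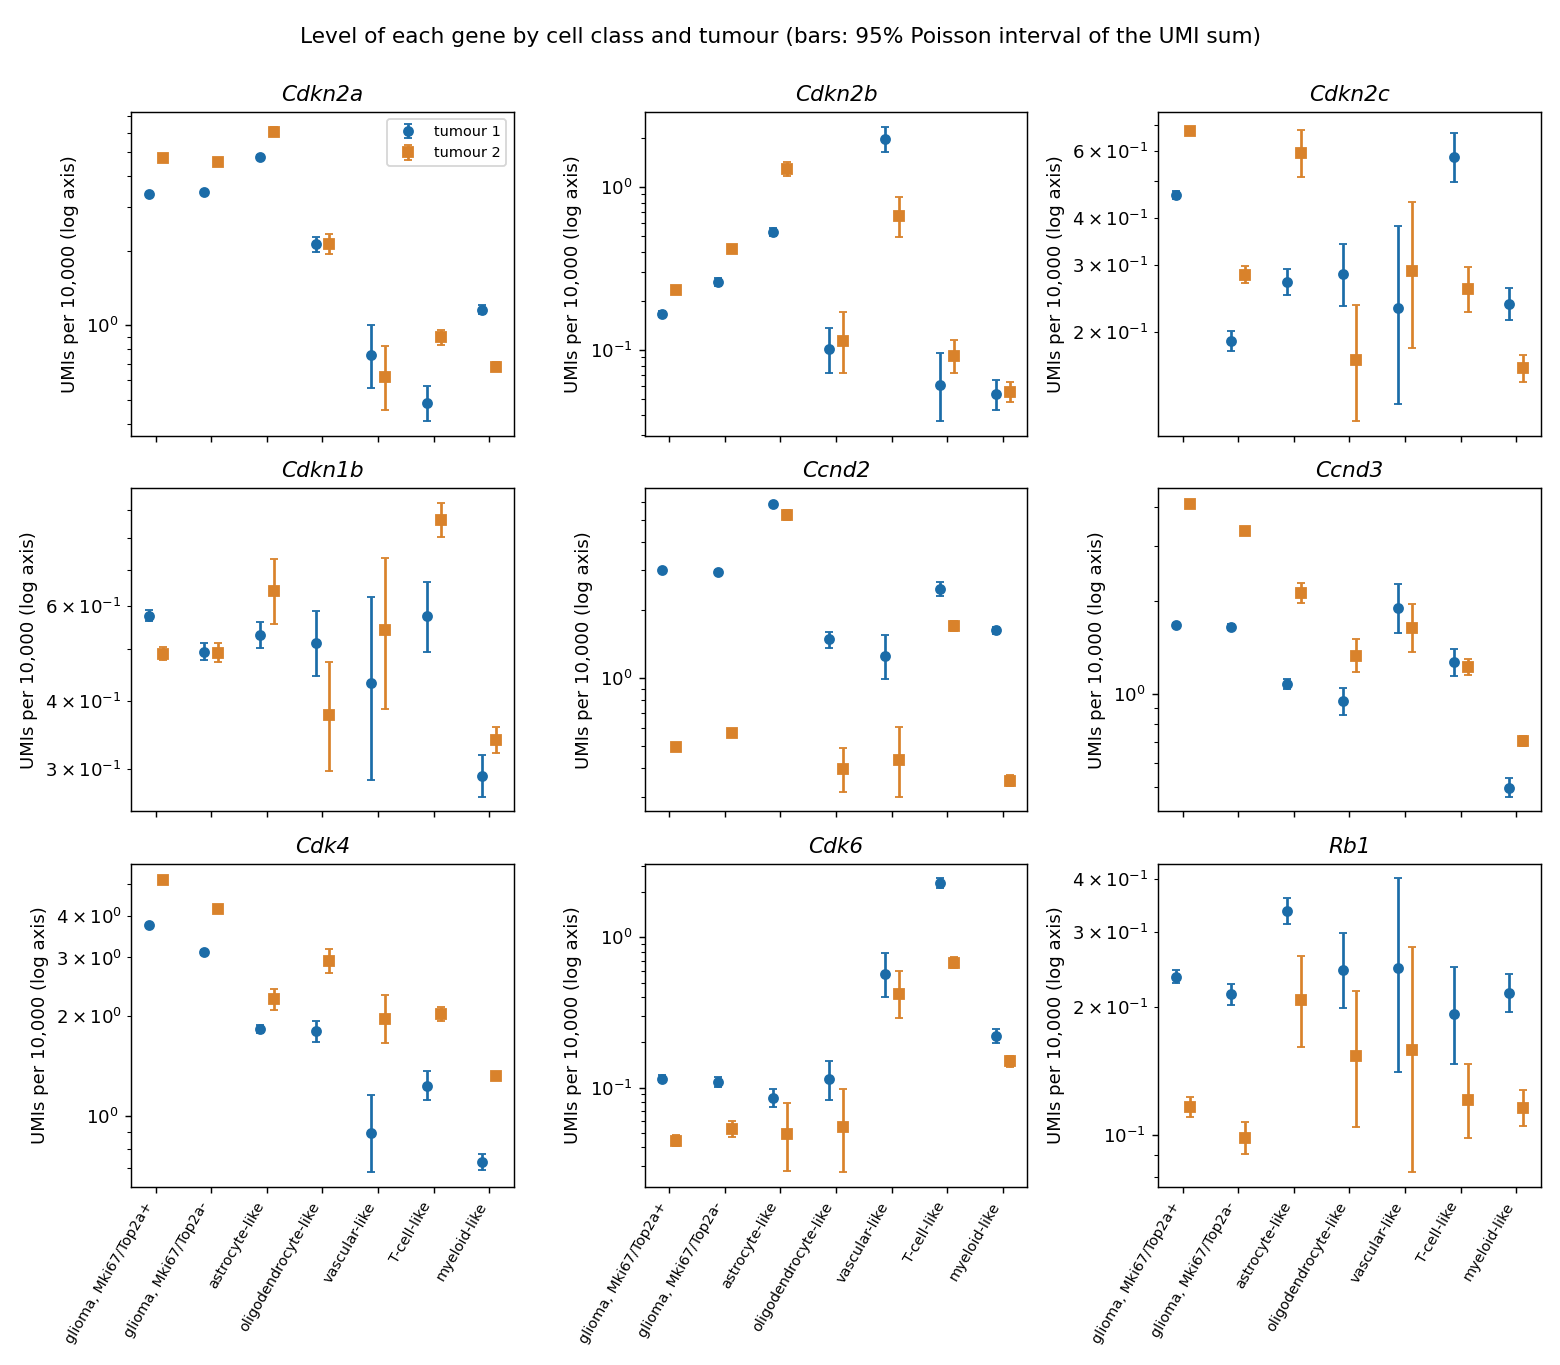
Level of each of the 9 genes (UMIs per 10,000, log axis) in 7 cell classes, with 1 point per tumour and bars for the 95% Poisson interval of the UMI sum. Cdkn2a and Cdk4 stand higher in both glioma classes than in vascular-like, T-cell-like and myeloid-like cells of the same tumour, Cdk6 stands highest in T-cell-like cells (2.29 and 0.677), and Ccnd2 stands apart between the tumours in most classes but not in astrocyte-like cells (5.87 and 5.26).

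Cdkn2a and Cdk4 were higher in Mki67/Top2a- glioma cells than in vascular-like, T-cell-like and myeloid-like cells, and Cdk6 was lower than in each of them. Cdkn2b fell below vascular-like cells and exceeded T-cell-like and myeloid-like cells. No gene of the 9 was called between Mki67/Top2a+ and Mki67/Top2a- glioma cells, where 1.96% of all genes were called, all of them higher, nor between Mki67/Top2a- glioma and oligodendrocyte-like cells, where 8.13% were (2.93% higher and 5.20% lower); 4 of the 9 had an unadjusted p under 0.05 in that comparison, and DESeq2 called 1. Against astrocyte-like cells 2 of 9 were called, 1 higher and 1 lower, where 5.15% of all genes were called (0.993% higher and 4.15% lower). Against vascular-like cells 2 were higher and 2 lower, where 28.6% were called (14.9% higher and 13.7% lower). Against T-cell-like cells 3 were higher and 4 lower, where 47.2% were called (24.4% higher and 22.8% lower), and against myeloid-like cells 4 were higher and 2 lower, where 51.3% were called (24.8% higher and 26.5% lower). In the last 2 comparisons, a call is thus a common result for any gene. With TMM scaling, each of these 19 calls had the same sign in both tumours taken alone. In UMIs per 10000, 2 calls against T-cell-like cells had the other order in 1 tumour. These were Cdkn2c in tumour 2 (0.284 in glioma, 0.259 in T-cell-like cells) and Rb1 in tumour 1 (0.214 and 0.192). Without the tumour block the counts in these 4 comparisons were 0, 2, 3 and 3 of 9. The median log2 fold change of the 9 genes against that of all genes was 0.12 and -0.07 between the glioma classes, -0.39 and 0.06 against astrocyte-like, 0.65 and 0.14 against oligodendrocyte-like, -0.03 and 0.28 against vascular-like, -0.66 and 0.10 against T-cell-like, and -0.02 and 0.00 against myeloid-like cells. Scaling by total UMIs instead of TMM moved the median of all genes up by 0.59 against T-cell-like and by 0.81 against myeloid-like cells, and the share of calls that were higher moved to 75.4% from 51.7% and to 78% from 48.4%. DESeq2's scaling moved the median against vascular-like cells by -0.24 and that share to 39.3% from 52%, and the share against astrocyte-like cells to 31.1% from 19.3%.

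**Figure D2:**
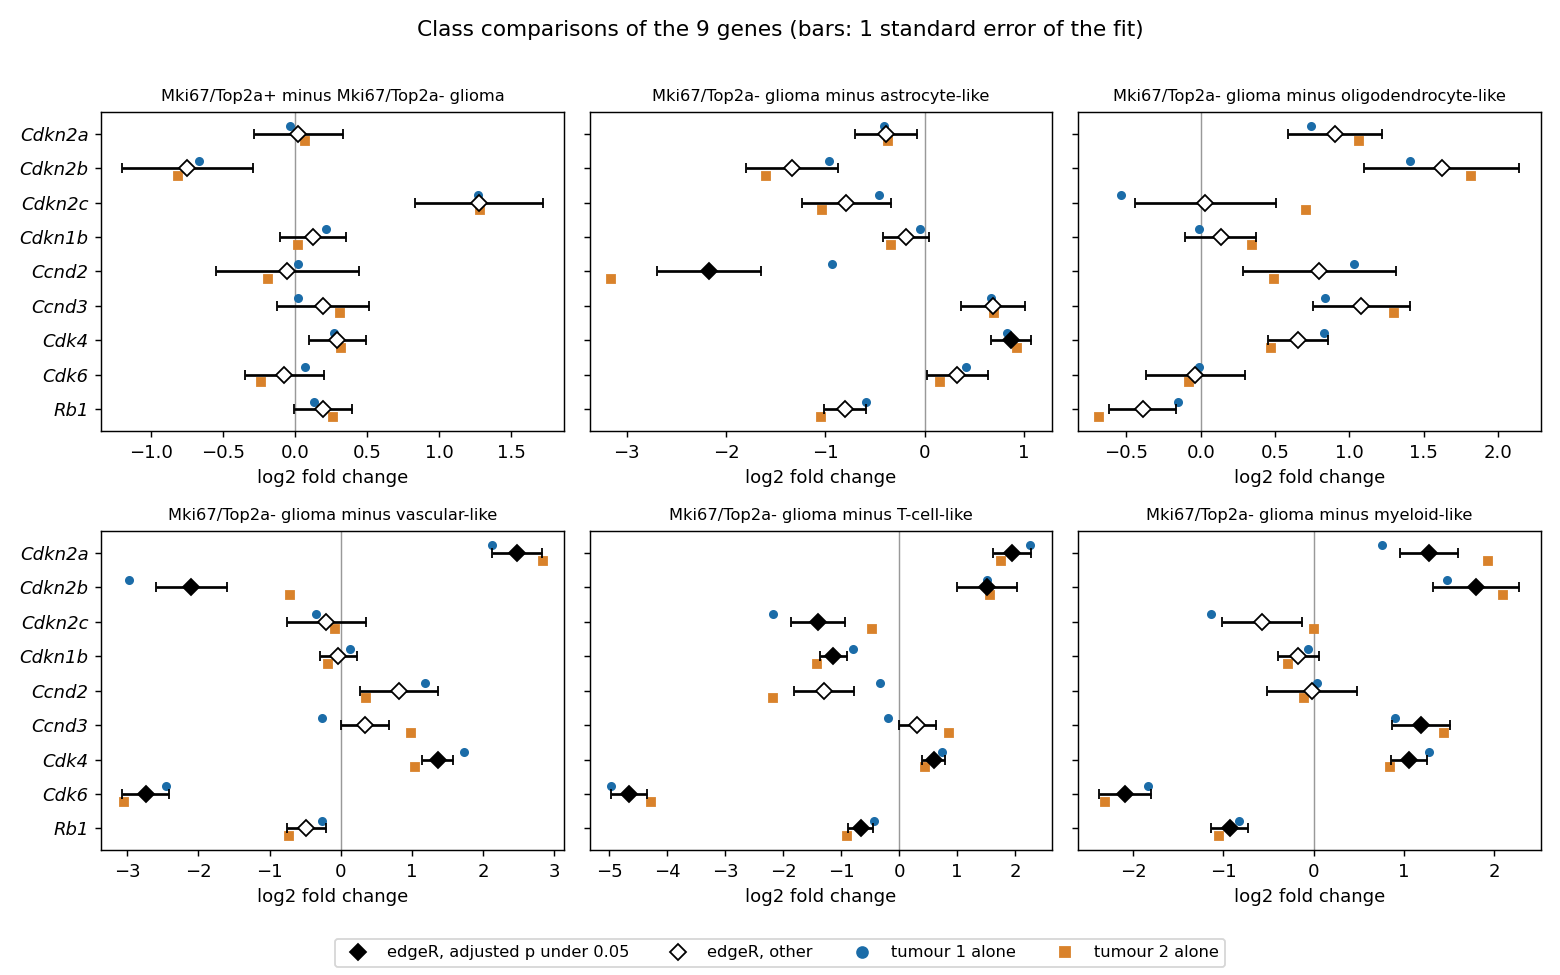
Log2 fold changes of the 9 genes in the 6 class comparisons. Diamonds are edgeR estimates with bars of 1 SE, filled where the adjusted p was under 0.05, and the other markers are the values of each tumour alone; 19 diamonds are filled, from Cdk6 against T-cell-like cells (-4.66) to Cdkn2a against vascular-like cells (2.48).

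Cdkn2a was found in nearly every glioma cell, whether or not it held Mki67 or Top2a UMIs. Its level was 3.38 and 4.73 UMIs per 10000 in Mki67/Top2a+ cells and 3.45 and 4.58 in Mki67/Top2a- cells, a log2 difference of 0.02 (SE 0.31, adjusted p = 1), and it was found in 97.9% and 95.9% of Mki67/Top2a+ cells and in 94.6% and 92.1% of Mki67/Top2a- cells. The 2 class values of a tumour were close together, and those of tumour 2 were higher in both classes. Astrocyte-like cells had 4.79 and 6.05, above the glioma cells of their own tumour, and oligodendrocyte-like cells 2.12 and 2.13. Neither differed from Mki67/Top2a- glioma cells past the threshold (log2 -0.39, SE 0.31, adjusted p = 0.549; log2 0.90, SE 0.32, adjusted p = 0.114). Among oligodendrocyte-like cells outside the glioma gate, a selection added after seeing the data, the second difference was 1.48 with an adjusted p of 0.0108.

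Against the remaining classes, the 2 Mki67/Top2a- glioma values of Cdkn2a (3.45 and 4.58) lay above 0.755 and 0.620 in vascular-like cells, a log2 fold change of 2.48 (SE 0.36, edgeR adjusted p = 0.000381). T-cell-like cells had 0.484 and 0.894 (log2 1.95, SE 0.33, adjusted p = 0.000545), and myeloid-like cells 1.16 and 0.680 (log2 1.28, SE 0.32, adjusted p = 0.00588). The 2 myeloid-like values were unalike, and the single-tumour log2 values were 0.76 in tumour 1 and 1.93 in tumour 2. Free RNA from broken glioma cells can put Cdkn2a UMIs into droplets of other cells. EGFP, a transgene of the glioma cells, stood at 6.73% and 13.0% of the Mki67/Top2a- glioma level in T-cell-like cells and at 9.35% and 13.5% in myeloid-like cells, and the glioma markers at 4.87 to 15.6% and 5.86 to 14.4% in myeloid-like cells. Cdkn2a stood at 14.0% and 19.5% of the glioma level in T-cell-like cells and at 33.5% and 14.9% in myeloid-like cells. In myeloid-like cells the Cdkn2a value of tumour 1 was thus well above EGFP and the highest of those markers, and that of tumour 2 was just above both. In vascular-like cells EGFP stood at 7.85% and 25.8% of the glioma level and Cdkn2a at 21.9% and 13.5%. There Cdkn2a lay above EGFP in tumour 1 and below it in tumour 2. The part of free RNA in these values was not tested. A Cdkn2a UMI was found in 32.6% and 50.2% of T-cell-like cells. After each cell had been thinned to 2000 UMIs, 46.5% and 49.6% of Mki67/Top2a- glioma cells and 6.84% and 16.5% of T-cell-like cells held one.

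Cdkn2b, which encodes the INK4 inhibitor p15, had its highest levels outside the glioma classes. Mki67/Top2a+ glioma cells had 0.165 and 0.232 UMIs per 10000 and Mki67/Top2a- glioma cells 0.261 and 0.415. Vascular-like cells had 1.96 (95% interval 1.63 to 2.33) and 0.659 (0.489 to 0.869) and astrocyte-like cells 0.530 and 1.29. The difference between the glioma classes did not pass (log2 -0.75, SE 0.45, adjusted p = 1), although both tumours had the lower value in the Mki67/Top2a+ class. Mki67/Top2a- glioma cells were lower than vascular-like cells (log2 -2.10, SE 0.50, edgeR adjusted p = 0.00835), by 2.97 on the log2 scale in tumour 1 and by 0.72 in tumour 2. They were higher than T-cell-like cells, which had 0.0609 and 0.0920 (log2 1.51, SE 0.51, adjusted p = 0.0301), and higher than myeloid-like cells, which had 0.0534 and 0.0551 (log2 1.80, SE 0.48, adjusted p = 0.00863). The call against T-cell-like cells was lost when cells with Mki67 or Top2a UMIs were left out of the other classes (adjusted p = 0.0887). Cdkn2b stood at 23.3% and 22.2% of the glioma level in T-cell-like and at 20.4% and 13.3% in myeloid-like cells, the last of these within the range of the glioma markers, so no expression is read from it. Against astrocyte-like cells the difference was -1.34 (SE 0.46, adjusted p = 0.131), and against oligodendrocyte-like cells, at 0.101 and 0.114, it was 1.62 (SE 0.52, adjusted p = 0.0880). Within the vascular-like class, cells that passed the endothelial gate had 2.22 and 0.997 UMIs of Cdkn2b per 10000 (38 and 28 cells), and the 20 cells of tumour 2 that passed the mural gate had 0.165 (0.0450 to 0.423), or 4 UMIs in all.

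Cdkn2c, which encodes p18, had its larger glioma values in Mki67/Top2a+ cells of both tumours, a difference that did not pass the test. Mki67/Top2a+ glioma cells had 0.459 and 0.678 UMIs per 10000, against 0.190 and 0.284 in Mki67/Top2a- glioma cells. Both values of the first class lay above both of the second, and the log2 values of the single tumours were 1.27 and 1.28. The fit gave 1.27 (SE 0.44) with an unadjusted p of 0.0148, the only 1 of the 9 genes under 0.05 in this comparison, and an edgeR adjusted p of 0.421, so the difference did not pass, and DESeq2 called none of the 9 either. With at least 5 Mki67 and Top2a UMIs required of the first class, Cdkn2c passed at a log2 fold change of 1.86 (adjusted p = 0.0462). After thinning to 2000 UMIs, 8.09% and 11.6% of Mki67/Top2a+ and 3.52% and 5.40% of Mki67/Top2a- glioma cells held a UMI of it, the same order at equal depth. T-cell-like cells had 0.577 and 0.259, the second value below the 0.284 of Mki67/Top2a- glioma cells in tumour 2. By the TMM-scaled fit, Mki67/Top2a- glioma cells were lower (log2 -1.40, SE 0.46, edgeR adjusted p = 0.0273), by 2.19 in tumour 1 and by 0.48 in tumour 2. That call was lost when T-cell-like cells with division marks were left out (log2 -1.03, adjusted p = 0.141) and under total-UMI scaling (log2 -0.80, adjusted p = 0.158). Astrocyte-like cells had 0.272 and 0.592, oligodendrocyte-like 0.284 and 0.169, vascular-like 0.231 and 0.290, and myeloid-like cells 0.237 and 0.161, with no call in any of these comparisons.

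**Figure D3:**
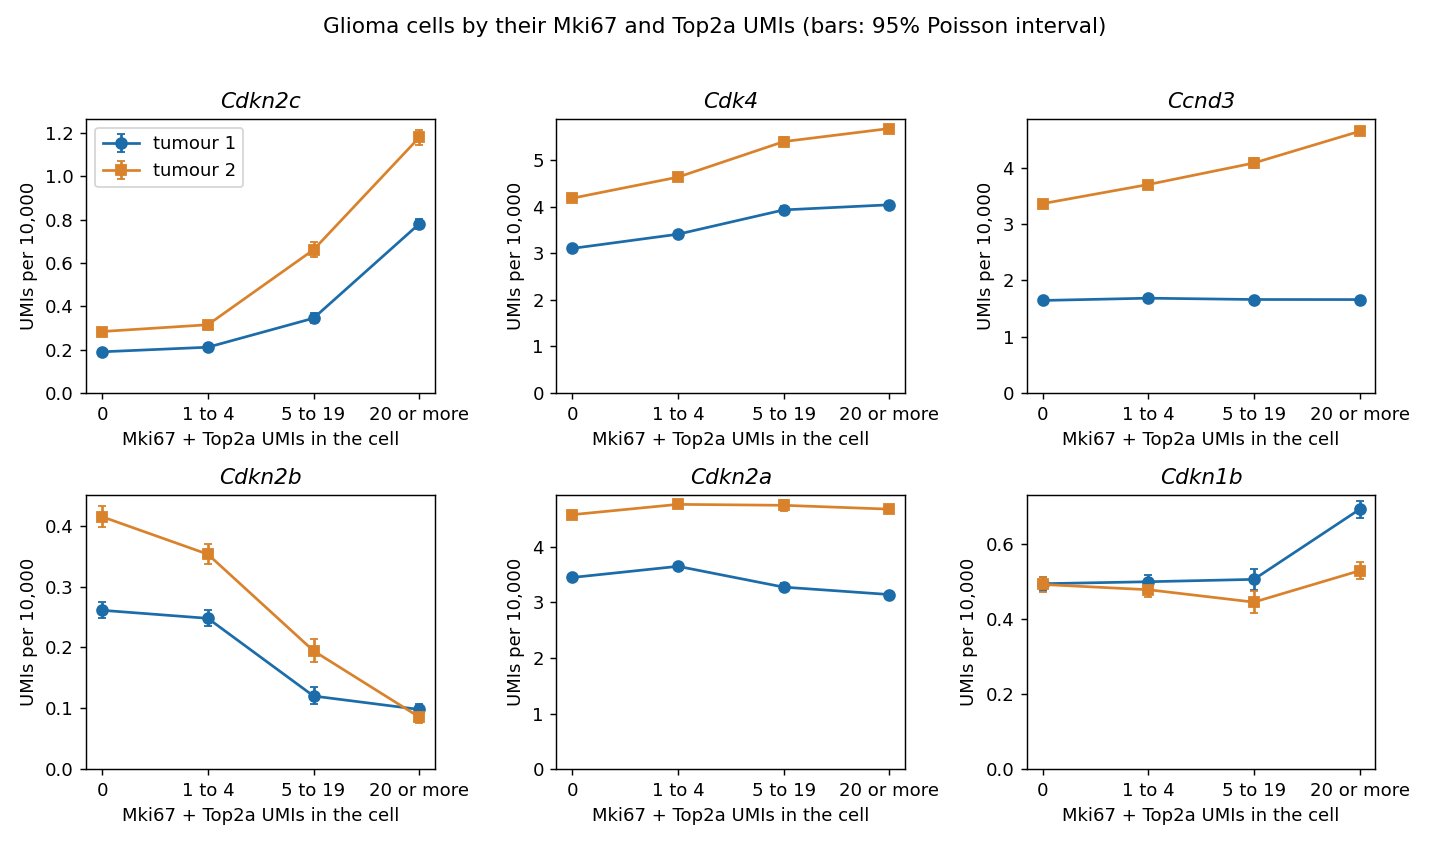
Levels of 6 of the genes (UMIs per 10,000) in glioma cells binned by their summed Mki67 and Top2a UMIs, with 1 line per tumour and bars for the 95% Poisson interval. Cdkn2c climbs to 0.781 and 1.18 in the top bin and Cdkn2b drops to 0.0982 and 0.0857, while Cdkn2a stays between 3.14 and 3.65 in tumour 1 and between 4.58 and 4.76 in tumour 2.

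A finer division of glioma cells, by 0, 1 to 4, 5 to 19 and 20 or more UMIs of Mki67 and Top2a together, gave the same order for Cdkn2c in both tumours: 0.190, 0.211, 0.345 and 0.781 UMIs per 10000 in tumour 1 and 0.284, 0.315, 0.661 and 1.18 in tumour 2. Cdkn2b ran the other way, at 0.261, 0.248, 0.120 and 0.0982 in tumour 1 and 0.415, 0.353, 0.194 and 0.0857 in tumour 2. The 2 INK4 genes thus ordered the bins oppositely in each tumour, and the Poisson intervals of the first and the last bin did not overlap for either gene. Cdk4 increased less, from 3.11 to 4.04 and from 4.19 to 5.68 over the bins. The bins hold 3069, 2405, 910 and 1470 cells of tumour 1 and 2390, 2022, 632 and 810 of tumour 2, and depth rises along them, with medians of 16696 UMIs in the lowest and 31164 in the highest bin of tumour 1 and of 19102.5 and 44827.5 in tumour 2. Among cells of 10000 to 30000 UMIs alone, Cdkn2c had 0.170 and 0.317 in the lowest and 0.780 and 1.69 in the highest bin, and Cdkn2b 0.222 and 0.363 in the lowest and 0.0637 and 0.1004 in the highest bin of tumours 1 and 2. These bins are cells of the same 2 libraries, and no test was made across them.

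Cdkn1b differed little between the glioma classes and stood lowest in myeloid-like cells. It had 0.576 and 0.490 UMIs per 10000 in Mki67/Top2a+ glioma cells and 0.494 and 0.492 in Mki67/Top2a- glioma cells, a log2 difference of 0.12 (SE 0.23, adjusted p = 1). In tumour 1 every pair of neighbouring classes in the order of levels had overlapping Poisson intervals. T-cell-like cells had 0.574 and 0.864, and Mki67/Top2a- glioma cells were lower by the TMM-scaled fit (log2 -1.14, SE 0.23, edgeR adjusted p = 0.00216). The call was lost under total-UMI scaling, at -0.54 with an adjusted p of 0.0723. Myeloid-like cells had the lowest values, 0.292 and 0.340, and here the direction depends on the scaling: the log2 fold change was -0.17 (SE 0.23, adjusted p = 0.564) with TMM and 0.64 (adjusted p = 0.0308) with total UMIs. Within T-cell-like cells, those with Mki67 or Top2a UMIs had 0.725 in tumour 2, against 1.23 in those without, and in tumour 1 the values were 0.482 and 0.779 in the same order. The remaining values ranged from 0.377 in oligodendrocyte-like cells of tumour 2 to 0.638 in astrocyte-like cells of tumour 2, with adjusted p-values from 0.722 to 0.934 for astrocyte-like, oligodendrocyte-like and vascular-like cells against Mki67/Top2a- glioma cells.

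Ccnd2, the D cyclin of many progenitor and immune cells, differed between the tumours in some classes and little in others. In Mki67/Top2a+ glioma cells it had 3.00 UMIs per 10000 in tumour 1 and 0.497 in tumour 2, and in Mki67/Top2a- glioma cells 2.95 and 0.575, so that the ratio of tumour 1 to tumour 2 was 5.13 in the second class. Myeloid-like cells showed nearly the same ratio, with 1.63 and 0.353 (4.61), while astrocyte-like cells had 5.87 and 5.26 (1.12) and T-cell-like cells 2.47 and 1.70 (1.45). In both tumours astrocyte-like cells had the highest level of the 7 classes. Mki67/Top2a- glioma cells were lower than astrocyte-like cells (log2 -2.17, SE 0.53, edgeR adjusted p = 0.0380), by 0.93 in tumour 1 and by 3.16 in tumour 2. That call depended on the cells used: it was lost among cells outside the glioma gate (log2 -2.34, adjusted p = 0.0527), among cells of 10000 to 30000 UMIs (-1.64, adjusted p = 0.0715) and without astrocyte-like cells of high EGFP (-1.02, adjusted p = 0.183). Between the glioma classes the log2 difference was -0.05 (SE 0.50, adjusted p = 1), against T-cell-like cells -1.30 (SE 0.51, adjusted p = 0.0562) and against myeloid-like cells -0.02 (SE 0.50, adjusted p = 0.983). The vascular-like class had 1.25 and 0.435 UMIs and the oligodendrocyte-like class 1.48 and 0.397, and neither was called (adjusted p = 0.301 and 0.414). In tumour 1, oligodendrocyte-like cells with division marks had 2.12, against 0.549 in those without. In tumour 2 they had 0.485 and 0.338, with overlapping Poisson intervals.

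Ccnd3 ran the other way between the tumours. It had 1.67 and 4.10 UMIs per 10000 in Mki67/Top2a+ glioma cells and 1.64 and 3.37 in Mki67/Top2a- glioma cells, with a ratio of tumour 1 to tumour 2 of 0.488 in the second class and a log2 difference between the classes of 0.19 (SE 0.32, adjusted p = 1). In tumour 2 the level increased over the division bins, at 3.37, 3.71, 4.09 and 4.65, whereas in tumour 1 it stayed between 1.64 and 1.68. Depth also rises along these bins. Among cells limited in depth as for Cdkn2c and Cdkn2b above, the values of Ccnd3 in tumour 2 were 2.93, 3.15, 3.42 and 3.31. The increase was thus smaller there, and the top bin lay below the bin before it. The part of depth in the increase was not tested. Myeloid-like cells had 0.498 and 0.704, and Mki67/Top2a- glioma cells were higher (log2 1.19, SE 0.33, edgeR adjusted p = 0.00988). Oligodendrocyte-like cells had 0.948 and 1.33, a log2 difference of 1.08 (SE 0.33) that did not pass (adjusted p = 0.0709) but did so among oligodendrocyte-like cells outside the glioma gate (1.63, adjusted p = 0.0105). Astrocyte-like cells had 1.08 and 2.12 (adjusted p = 0.269), vascular-like cells 1.90 and 1.64 (adjusted p = 0.497) and T-cell-like cells 1.26 and 1.22 (log2 0.31, SE 0.32, adjusted p = 0.449, and 0.91 with an adjusted p of 0.0321 under total-UMI scaling). The highest class was vascular-like in tumour 1 and Mki67/Top2a+ glioma in tumour 2.

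As shares of the 3 D cyclins, which count 3′ tags and use no transcript length, so that capture may differ between the genes, the UMIs of glioma cells were split differently in the 2 tumours. Ccnd1, the third D cyclin, made up 63.9% and 44.8% in Mki67/Top2a+ and 65.8% and 50.1% in Mki67/Top2a- glioma cells. Ccnd3 made up 12.9% and 49.2% in the first class and 12.2% and 42.7% in the second, and Ccnd2 23.2% and 5.97% in the first and 22.0% and 7.28% in the second. The mix thus differed more between the tumours than between the glioma classes of 1 tumour. Outside glioma, Ccnd2 held the larger part in T-cell-like cells (57.5% and 50.8%) and about as much in astrocyte-like cells (50.1% and 48.6%).

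**Figure D4:**
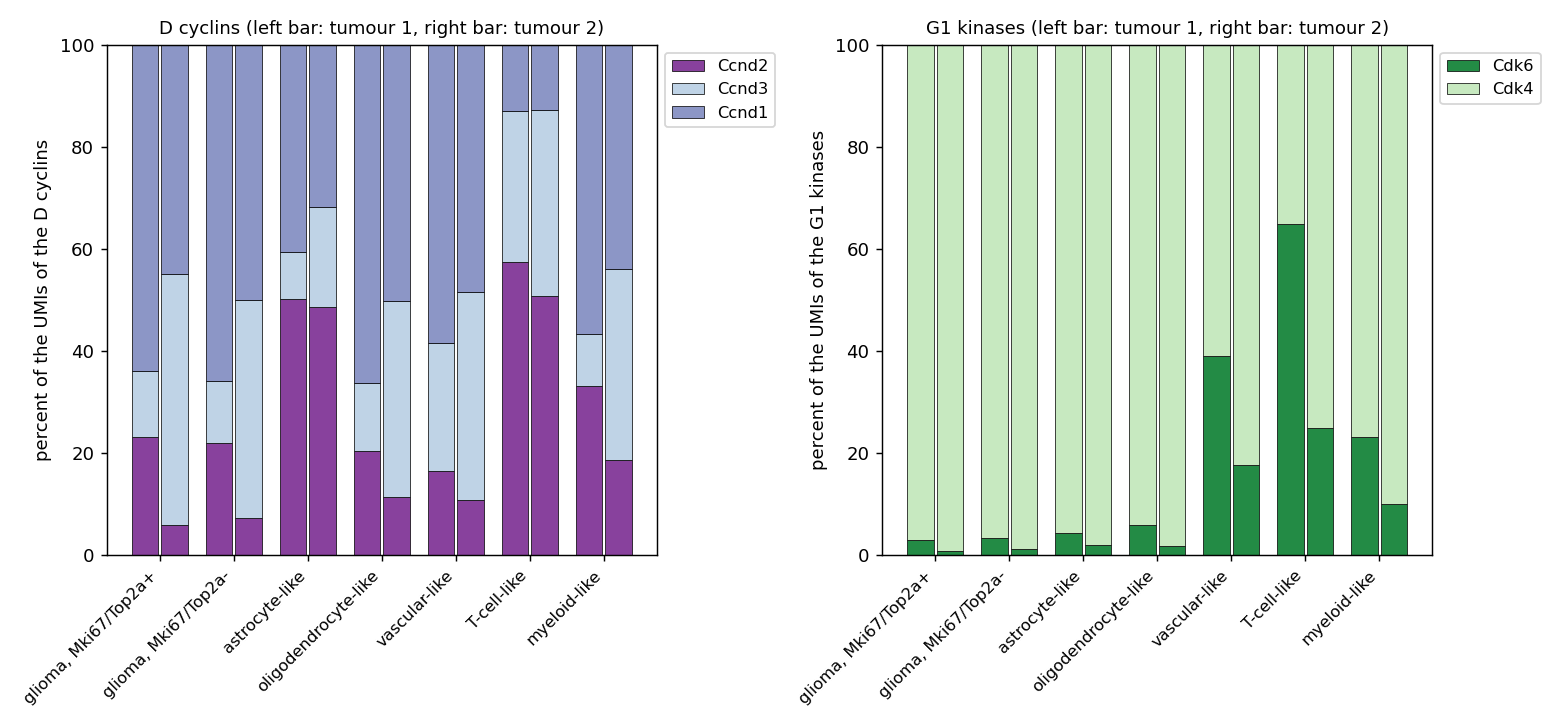
Shares of the UMIs of the D cyclins (Ccnd1, Ccnd2, Ccnd3) and of the G1 kinases (Cdk4, Cdk6) in each cell class, with the left bar of a pair for tumour 1 and the right bar for tumour 2. Cdk6 takes 3.40% and 1.25% of the kinase UMIs in Mki67/Top2a- glioma cells, against 64.9% and 25.0% in T-cell-like cells.

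Cdk4, the kinase partner of the D cyclins, was highest in glioma cells in both tumours. Mki67/Top2a+ glioma cells had 3.76 and 5.14 UMIs per 10000 and Mki67/Top2a- glioma cells 3.11 and 4.19, and the log2 difference of 0.29 (SE 0.20) did not pass (adjusted p = 1). Every value outside glioma lay below both glioma values of its own tumour. Mki67/Top2a- glioma cells were higher than astrocyte-like cells, at 1.83 and 2.25 (log2 0.87, SE 0.20, edgeR adjusted p = 0.0305), than vascular-like cells, at 0.894 and 1.97 (1.36, SE 0.21, adjusted p = 0.000668), than T-cell-like cells, at 1.24 and 2.03 (0.60, SE 0.20, adjusted p = 0.0297), and than myeloid-like cells, at 0.731 and 1.32 (1.06, SE 0.20, adjusted p = 0.00110). The astrocyte-like call was lost among cells with under 10% mitochondrial UMIs (adjusted p = 0.0585) and the T-cell-like call when glial and vascular-like cells of high EGFP were left out of the fit (adjusted p = 0.0648). Oligodendrocyte-like cells had 1.80 and 2.93 (0.65, SE 0.20, adjusted p = 0.0746), and outside the glioma gate the difference was 1.57 (adjusted p = 0.000660). Levels of Cdk4 were 39.9% and 48.4% of the glioma level in T-cell-like and 23.5% and 31.6% in myeloid-like cells, above the 3.92 to 15.6% seen for glioma markers there. Among T-cell-like cells, those with Mki67 or Top2a UMIs had 1.40 and 2.24, against 0.873 and 1.48 in those without.

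Cdk6 was the reverse of Cdk4: it was lowest in glioma and glial classes and highest in T-cell-like cells. It had 0.115 and 0.0444 UMIs per 10000 in Mki67/Top2a+ glioma cells and 0.109 and 0.0531 in Mki67/Top2a- glioma cells (log2 -0.07, SE 0.27, adjusted p = 1), against 2.29 (95% interval 2.13 to 2.46) and 0.677 (0.622 to 0.735) in T-cell-like cells. The log2 fold change of Mki67/Top2a- glioma to T-cell-like cells was -4.66 (SE 0.32, edgeR adjusted p = 1.38e-06), with -4.97 in tumour 1 and -4.28 in tumour 2, and the call was made in all 13 alternatives. After thinning to 2000 UMIs, 1.92% and 1.05% of Mki67/Top2a- glioma cells and 31.9% and 10.4% of T-cell-like cells held a UMI. Vascular-like cells had 0.570 and 0.422 (log2 -2.74, SE 0.33, adjusted p = 0.000114) and myeloid-like cells 0.221 and 0.150 (-2.09, SE 0.29, adjusted p = 0.000109), again lower in glioma cells in both tumours and called in all 13 alternatives. Astrocyte-like (0.0857 and 0.0489) and oligodendrocyte-like cells (0.114 and 0.0546) did not differ from glioma cells past the threshold (log2 0.33, SE 0.31, adjusted p = 0.629; log2 -0.04, SE 0.33, adjusted p = 0.973).

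Within the T-cell-like class, Cdk6 in tumour 1 was higher in cells with Cd8a or Cd8b1 UMIs: these CD8 cells had 2.54 with division marks (117 cells) and 2.26 without (87 cells), while CD4 cells without division marks had 0.549 (18 cells). In tumour 2 the same groups had 0.844 (158 cells), 0.745 (95 cells) and 0.681 (36 cells). In the vascular-like class of tumour 2, Cdk6 had 0.867 (0.537 to 1.33) in mural and 0.113 (0.0368 to 0.265) in endothelial cells, from 21 and 5 UMIs, which is the opposite order to Cdkn2b. Tumour 1 had 5 mural cells, too few to describe. Myeloid-like cells with microglial genes (521 and 192) had 1.56 and 0.269 UMIs of Ccnd2, and those with monocyte genes (31 and 823) 2.56 and 0.446, so the difference between tumours in Ccnd2 stood in both kinds of myeloid-like cell.

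Rb1, the target of the D cyclin kinases, had few UMIs and small differences between classes. It had 0.236 and 0.116 UMIs per 10000 in Mki67/Top2a+ and 0.214 and 0.0985 in Mki67/Top2a- glioma cells (log2 0.19, SE 0.20, adjusted p = 1). Astrocyte-like cells had 0.336 and 0.208 and were the highest class in both tumours. Every pair of neighbouring classes had overlapping Poisson intervals, and the class next to astrocyte-like was vascular-like, with 16 and 12 UMIs in all. The astrocyte-like intervals (0.313 to 0.359 and 0.161 to 0.263) overlapped neither those of Mki67/Top2a+ (0.227 to 0.244 and 0.110 to 0.123) nor those of Mki67/Top2a- glioma cells (0.202 to 0.226 and 0.0902 to 0.107). The difference to astrocyte-like cells was -0.80 (SE 0.21) and missed the threshold (adjusted p = 0.0529). It passed in 6 alternatives, that with cells outside the glioma gate among them (-1.28, adjusted p = 0.00567). T-cell-like cells had 0.192 and 0.121 and myeloid-like cells 0.216 and 0.116, close to the glioma values, and the fit called Mki67/Top2a- glioma cells lower than both (log2 -0.66, SE 0.22, edgeR adjusted p = 0.0261; log2 -0.93, SE 0.21, adjusted p = 0.00287). With total-UMI scaling these values were -0.07 (adjusted p = 0.799) and -0.12 (adjusted p = 0.630), and neither was called. The call against myeloid-like cells was made in 11 of the 13 alternatives, DESeq2 among them, and was also lost without the tumour block (-0.91, adjusted p = 0.150). The call against T-cell-like cells was made in 6 of the 13, and the single tumours gave -0.43 and -0.90 with TMM. In UMIs per 10000, the glioma value of tumour 1 (0.214) lay above its T-cell-like value (0.192). Oligodendrocyte-like cells had 0.244 and 0.154 and vascular-like cells 0.247 and 0.158 (adjusted p = 0.344 and 0.245). In each of the 7 classes the value of tumour 1 was the higher, with a ratio of 2.17 in Mki67/Top2a- glioma cells.

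The other genes of the circuit came from a list of 33, all of which were tested. Of all 15510 genes, 1.96% were called between the glioma classes, all of them higher. Between Mki67/Top2a+ and Mki67/Top2a- glioma cells 9 of them rose and none fell: Ccne1 (log2 1.34, adjusted p = 0.0438) and Ccne2 (2.49, adjusted p = 0.00294), the E cyclins that activate Cdk2, the E2F genes E2f1 (2.22, adjusted p = 0.0151), E2f2 (2.05), E2f7 (3.17) and E2f8 (2.30), and Ccna2 (4.20), Cks1b (2.11) and Ezh2 (1.28). Ccne2 had 0.117 and 0.0704 UMIs per 10000 in Mki67/Top2a+ cells, against 0.0175 and 0.0155 in Mki67/Top2a- cells, and E2f1 had 0.175 and 0.183, against 0.0327 and 0.0447. Ccnd1 stood at -0.08 (SE 0.29, adjusted p = 1), Cdkn2d, the fourth INK4 gene, at 0.58 (adjusted p = 0.501), Cdk2 at 0.97 (adjusted p = 0.624), Skp2, which targets p27 for degradation, at 1.31 (adjusted p = 0.141), and Rbl1, an Rb1 relative, at 1.72 (adjusted p = 0.0523). Among the E2F genes, E2f3 stood at 0.63 (adjusted p = 0.449), and E2f4, E2f5 and E2f6 had an adjusted p of 1. A difference between this list and the 9 genes was not tested.

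Against the other classes, 0 of the 33 rose and 1 fell relative to astrocyte-like cells (E2f5, log2 -0.79, adjusted p = 0.0416), and none passed relative to oligodendrocyte-like cells, where 8 had an unadjusted p under 0.05. Of all genes, 5.15% were called against astrocyte-like and 8.13% against oligodendrocyte-like cells. The share was 28.6% against vascular-like cells (14.9% higher, 13.7% lower) and 47.2% against T-cell-like cells (24.4% and 22.8%). Against myeloid-like cells it was 51.3% (24.8% and 26.5%). A difference between the list and all genes was not tested. Relative to vascular-like cells 4 rose and 4 fell, with Cdkn1a, the p21 gene, lower in Mki67/Top2a- glioma (0.165 and 1.05, against 6.10 and 5.95 UMIs per 10000; log2 -3.83, adjusted p = 0.00130) and Ccnd1 (0.95, adjusted p = 0.0330) and Myc (2.38, adjusted p = 0.00593) higher. Relative to T-cell-like cells 6 rose and 13 fell: Ccnd1 was higher (8.83 and 3.95, against 0.561 and 0.428; log2 2.95, adjusted p = 2.87e-05), as was Cdkn1c (3.05, adjusted p = 0.0105), and Ccna2 (-4.72), E2f7 (-3.46), Rbl1 (-2.91), Ccne2 (-2.75) and Rbl2 (-1.88) were lower. Division marks were present in 55.1% of T-cell-like cells of each tumour and in none of the Mki67/Top2a- glioma cells by definition. They were also present in 37.0% and 43.4% of myeloid-like, 40.6% and 49.5% of astrocyte-like and 41.2% and 33.0% of oligodendrocyte-like cells. In vascular-like cells the shares were 18.0% and 43.1%. The part of division marks in the values of the list was not tested for any of these classes. Relative to myeloid-like cells 10 rose and 11 fell, with Ccnd1 (1.11, adjusted p = 0.00792), Cdkn1c (2.90, adjusted p = 0.00892) and Mycn (2.22, adjusted p = 0.0176) higher and Cdkn1a (-3.62, adjusted p = 0.000751), E2f1 (-2.34, adjusted p = 0.000750) and Rbl1 (-1.78, adjusted p = 0.00323) lower. Mtap, which lies beside Cdkn2a (chr4:89137122-89181081) and is often lost with it in human tumours, had 0.551 and 0.531 UMIs per 10000 in Mki67/Top2a- glioma cells, against 0.299 and 0.283 in oligodendrocyte-like cells (log2 0.89, adjusted p = 0.0401), and it was also higher than in myeloid-like cells (0.70, adjusted p = 0.0216).

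Within glioma cells, the genes also varied with cell groups defined by other marker genes, which are described without a test because they are cells of the same libraries. Cells with Col2a1 and Acan UMIs, genes of cartilage matrix, had 0.146 UMIs of Ccnd2 per 10000 in tumour 2 (2214 cells), against 0.894 in the other glioma cells, and 4.59 of Ccnd3, against 3.15. Cells of tumour 2 with Egfr and Sox9 (121 cells) had 2.49 of Ccnd2, against 0.468, and 6.86 of Cdkn2a, against 4.62. In tumour 1 the contrast in Ccnd2 was smaller in both groups, at 2.42 against 3.08 and at 3.28 against 2.87. Cells with UMIs of at least 2 of the hypoxia genes Ndrg1, Car9 and Adm (39 and 208 cells) had 0.690 and 0.835 of Cdkn2b, against 0.188 and 0.264 in the rest, and 4.33 and 6.85 of Cdkn2a, against 3.39 and 4.58. They had less Cdk4, at 2.73 and 3.56, against 3.57 and 4.90, and more Cdk6, at 0.700 and 0.125, against 0.107 and 0.0434. These cells were deep, with medians of 50884 and 34128 UMIs, against 20932 and 23773.5, and the part of depth in the differences was not tested.

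As a description over the 14 sums of class and tumour and 8799 genes, which share libraries, each gene's nearest patterns by Pearson r of log2(CPM + 1) were as follows. Cdkn2a ran most like Pde1c (r = 0.971), Cdkn2b like Cyr61 (0.971), Cdkn2c like Nup93 (0.831), Cdkn1b like Rab3ip (0.877), Ccnd2 like Crot (0.929), Ccnd3 like Aen (0.930), Cdk4 like Mrto4 (0.973), Cdk6 like Stk24 (0.981) and Rb1 like Man1b1 (0.929). Of 108 pairs of neighbouring classes in the order of levels over the 9 genes and 2 tumours, 58 had overlapping Poisson intervals. The class with the highest level was also the class with the largest share of cells with a UMI after thinning to 2000 UMIs in 16 of 18 cases.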

How the data were processed

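The authors aligned the reads to mm10 (GRCm38) with Cell Ranger 4.0.0 and deposited unnormalized UMI counts per gene and barcode; Seurat is named in the submitters' notes, and no output of it was used. Libraries had 14302 and 18596 barcodes and 282961884 and 295366782 UMIs of mouse genes. Barcodes with under 500 genes, at least 20% mitochondrial or at least 5% haemoglobin UMIs were left out, which kept 12850 and 15507 cells, with medians of 18750 and 14016 UMIs. The study names a limit of 5% on red blood cells, which alone leaves 14294 and 18546 barcodes.

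Cells were gated on raw UMIs of marker genes: glioma cells by at least 2 UMIs each of 3 of 6 markers (Sox2, Olig1, Olig2, Cspg4, Pdgfra, Nes), and astrocyte-like, oligodendrocyte-like, vascular-like, T-cell-like and myeloid-like cells by their own lists. In all, 10059 (78.3%) and 8847 (57.1%) of the cells had a class; those with none were shallower (medians of 6171 and 3079.5 UMIs) and were not analysed here. Scrublet (scanpy 1.11.5) marked 0 barcodes at its automatic threshold and had thus failed, so no doublet was removed in the main fit and the 10.3% and 12.4% of cells with the highest scores were left out as an alternative.

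UMI counts were summed per tumour and class and tested with edgeR 4.0.16 in R 4.3.3, using filterByExpr, TMM factors and a block for the tumour, since 1 animal gave all classes of a tumour (6 residual degrees of freedom, common dispersion 0.0536). Deviations of classes from their means correlated between 0.104 and 0.939 over 21 pairs of classes (median 0.375). The fit was tested on simulated data. Levels have exact Poisson and shares exact binomial (Clopper-Pearson) 95% intervals, which cover counting error only. Thinning drew 2000 UMIs per cell. Alternatives were DESeq2 1.42.0, no low-count filter, no block, other gates and depth limits and, added after seeing the data, glia outside the glioma gate, cells of 10000 to 30000 UMIs and total-UMI scaling. Every one of the 9 genes was named in each comparison; of the 33 other genes of the circuit, fixed ones and up to 5 further called genes of largest change were named. The genes and lists were chosen with earlier results of these data known. Positions are from GENCODE on GRCm38. Genes on the opposite strand overlap Cdk4, Cdk6, Ccnd2, Ccnd3 and Rb1, and Ccnd3 has a processed pseudogene.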

Additional observations from a re-analysis of the deposited data

How the results depend on the processing

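Over 13 alternatives and 54 fold changes of the 9 genes (702 fits), 638 kept their direction and side of the threshold, 28 lost a call, 35 gained one and 1 reversed; 33 of the 638 changed sign without passing in either fit. The reversal was Cdkn1b against myeloid-like cells, -0.17 in the TMM fit and 0.64 under total-UMI scaling (added after seeing the data). Called genes numbered 0 between the glioma classes and 1 with at least 5 Mki67 and Top2a UMIs. Against astrocyte-like cells, 2 were called, and 1 with mitochondrial UMIs under 10%, 1 without high EGFP and 1 among cells of 10000 to 30000 UMIs. Against oligodendrocyte-like cells, 0 were called, but 1 with DESeq2, 2 without the low-count filter, 3 with stricter gates, 1 with division marks at 5000 UMIs, 3 without the highest Scrublet scores, 2 without other cells that had Mki67 or Top2a UMIs, 2 without high EGFP, 3 with glia outside the glioma gate and 3 among cells of 10000 to 30000 UMIs; the cause was not tested. Without the replicate block, which pairs classes of the same animal, 0 were called against astrocyte-like, 2 against vascular-like (main 4), 3 against T-cell-like (main 7) and 3 against myeloid-like cells (main 6), and over all genes 49, 34, 236, 2160, 3812 and 4011 were called in the 6 comparisons, against 304, 798, 1261, 4432, 7326 and 7949 with it.

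Other counts over all genes that moved by more than 1.5 times were 471 between the glioma classes and 1532 against astrocyte-like cells with DESeq2 (304 and 798), 585 with at least 5 Mki67 and Top2a UMIs (304), 1341, 1912 and 4780 against astrocyte-like, oligodendrocyte-like and T-cell-like cells without Mki67 or Top2a UMIs in these cells (798, 1261 and 7326), and 1879 and 2157 with glia outside the glioma gate (798 and 1261). With 1 tumour left out no residual spread remains, so each tumour alone gives a value and no test. With the TMM factors of the full fit, all 19 calls kept their direction, and 10 values of genes not called had the other sign. In UMIs per 10000, Cdkn2c in tumour 2 and Rb1 in tumour 1 were higher in Mki67/Top2a- glioma than in T-cell-like cells. Thinning to 5000 UMIs put the largest share of cells in the class of the highest level in 15 of 18 cases (16 at 2000). Precision is limited by 2 animals and, for the vascular-like class, by 50 and 51 cells.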
